A study of Mus musculus with 8 samples.

Results

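The numbered Gpr genes are the genes whose array name is Gpr followed only by digits, a naming series given mostly to G protein-coupled receptors that had no known ligand when they were cloned. The name rule found 88 genes among the 34836 gene names of the array, carried by 102 probes and 129 spots, and 64 of them had enough signal to be tested beside 27435 genes in all. The rule uses the name only and no measured value. All 88 names matched a RefSeq gene, some under a newer symbol such as Adgrf5 for Gpr116. The names do not make a family: most are rhodopsin-class receptors, others are adhesion or class C receptors, and a few, such as Gpr137 and Gpr155, are membrane proteins that sit largely inside the cell.

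The genes were measured in neurons of the arcuate (Arc), ventromedial (VMH) and dorsomedial (DMH) nuclei of the mouse hypothalamus, in 2 samples of Arc, 3 of VMH and 3 of DMH. Every animal was a 2-month-old female carrying Nkx2-1-CreERT2 and a Rosa-ZsGreen reporter that a stop cassette keeps silent until Cre removes it, and every animal was given tamoxifen, so the 3 groups differ by nucleus and not by genotype or treatment. The driver marks cells in which Nkx2-1, a homeobox gene of the ventral forebrain, was active around the tamoxifen dose, so neurons of a nucleus without Nkx2-1 were not sampled. Green neurons were cut out with a laser and pooled, and the RNA was labelled with Cy5 and hybridised to 1-colour Agilent arrays. The study set out to find genes that mark the green neurons of Arc, VMH or DMH. The labels tie no sample to an animal and give no number of animals. Samples may therefore share an animal; if samples of the same nucleus do, the p-values are too small, and in any case they measure only how much these samples differ within a nucleus, part of which may be technical. In pooled cells, fewer expressing cells and less RNA per cell cannot be told apart.

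G protein-coupled receptors thread through the membrane several times, and an activated receptor passes its signal to a heterotrimeric G protein, whose α subunit raises or lowers cyclic AMP, opens the phospholipase C pathway or acts on the cytoskeleton. RGS proteins end the signal by speeding GTP hydrolysis. The Arc, VMH and DMH are neighbouring nuclei that control feeding, energy use, reproduction and defensive behaviour, and many of the hormones and peptides that reach them act through receptors of this class. Orphan receptors are of interest there because each may read a signal that is not yet known.

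Values are log2 of the background-subtracted signal minus the array's 75th percentile of log2 signal, so 0 marks that percentile, and each value compares arrays for the same probe; levels of different probes are not comparable. The 75th percentile lay between 1806 and 3042 signal units, and 72.4% to 78.7% of probes were well above background per array by the scanner software's flag. Log2 values correlated across probes at 0.94 to 0.964 for arrays of the same nucleus and at 0.905 to 0.951 for arrays of different nuclei. The markers of each nucleus were called higher in their own nucleus against the mean of the others for 8 of 8 Arc, 6 of 6 VMH and 6 of 6 DMH genes. These lists were chosen with earlier results of these data known. Between pairs, 4 of 6 VMH markers and 4 of 6 DMH markers were called against Arc, and 6 of 8 Arc markers against DMH. Nr5a1 was 0.87 higher in VMH than in Arc (adjusted p 0.123), and Bsx 0.66 higher in DMH than in Arc (adjusted p 0.413). The other pairs were called for every marker. Markers of glia and vessels were measured in all nuclei. The summed signal of 10 microglial markers, relative to the 75th percentile, was 214 to 246 in Arc, 161 to 190 in VMH and 114 to 153 in DMH, most of it from Itgam; the median difference of these 10 genes from the mean of the other nuclei was 0.37, -0.43 and -0.11, so that the order of VMH and DMH is not that of the sums. The sum of 7 oligodendrocyte markers was 12.2 to 20.8, 21.2 to 31.7 and 16.4 to 23.5, and that of 7 astrocyte markers 47.0 to 54.1, 49.0 to 59.6 and 41.3 to 52.7. Most of the astrocyte sum came from Aldoc. The median difference of these 7 genes was -0.34, -0.16 and 0.51, which is not the order of the sums. Signal on all 8 arrays was found for 9 of the 10 microglial and 6 of the 7 tested oligodendrocyte markers. None of these microglial or oligodendrocyte markers was called in any nucleus against the mean of the others. Of the astrocyte markers 1, the connexin Gjb6, was called higher in DMH (log2 1.19, adjusted p 0.0358), with a median of 0.51 in DMH over the 7. Of 6 neuron markers 1, the synaptic vesicle gene Syt1, was called lower in Arc (log2 -1.48, adjusted p 0.0157). The part of these cell types in the results was not tested.

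The share of numbered Gpr genes with signal was below that of all gene names in each nucleus. In Arc 55 of 88 (62.5%) had a probe well above background on every array, against 73.9% of all gene names. In VMH and in DMH the count was 60 of 88 (68.2%), against 73.4% and 75.9% of all gene names. On all 8 arrays 53 genes (60.2%, against 69.9%) were well above background, and on no array 16 genes (18.2%, against 11.3%).

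The genes without signal came mostly from 2 of the role groups. Most adhesion receptors carry a long extracellular region, and many, though not all, are cut there at an autoproteolysis site. Of the 17 adhesion receptors, 6 had no signal on any array, among them Gpr111, Gpr126, Gpr128 and Gpr133. Of the 19 receptors for lipids, nucleotides or metabolites and receptors of immune cells, 8 had none: Gpr20, Gpr33, Gpr34, Gpr81, Gpr119, Gpr141, Gpr174 and Gpr183. Gpr1, a chemerin receptor, and Gpr22 make up the 16. Gpr34 is a receptor of microglia and was below the threshold for signal on all 8 arrays although microglial markers were measured. By contrast 16 of the 21 rhodopsin-class orphans of neurons and all 3 receptors of the SREB family, named for super-conserved receptors expressed in brain, had signal on all 8 arrays.

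A further 8 genes had signal on some arrays but on every array of no nucleus, and were not tested. They were Gpr37, Gpr65, Gpr82, Gpr89, Gpr98, Gpr112, Gpr143 and Gpr160. Gpr65, a proton-sensing receptor of immune cells, was well above background on 1 array, Arc 1, at -3.89 on the mean of its 10 spots, against -6.99 to -6.23 on the other 7. Gpr160 was well above background on 2 of the 3 DMH arrays and on none of Arc or VMH.

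**Figure D1:**
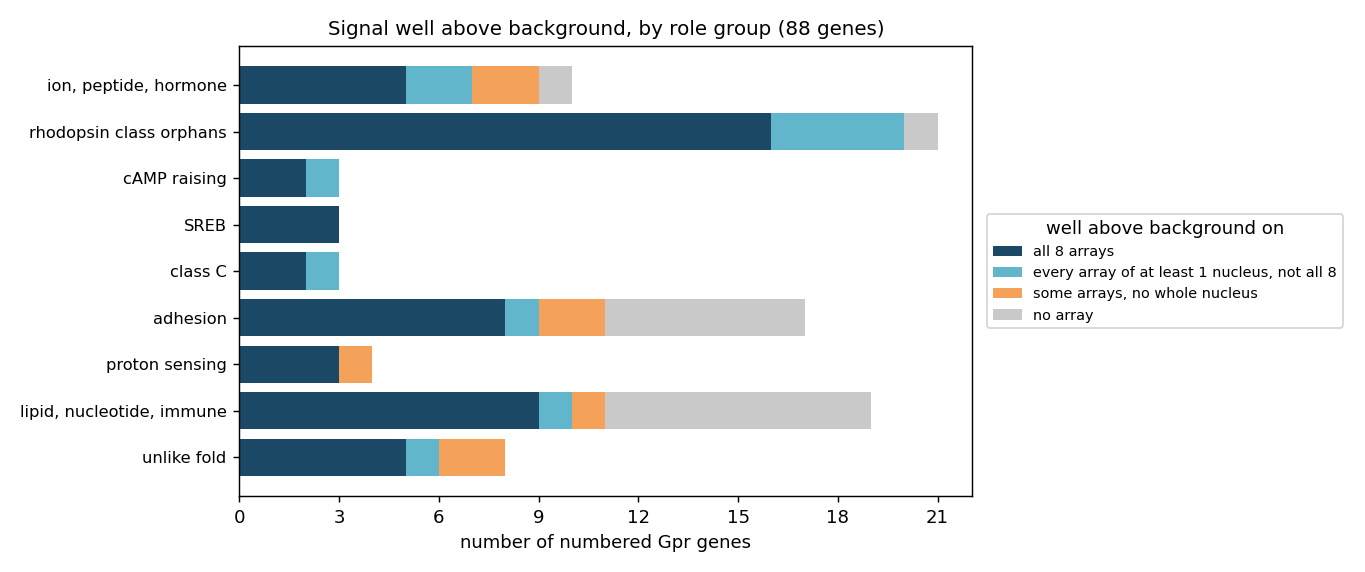
Number of numbered Gpr genes (horizontal axis) in each role group (vertical axis), split by the arrays on which a probe of the gene was well above background. All 3 SREB receptors and 16 of 21 rhodopsin-class orphans had signal on all 8 arrays, whereas 6 of 17 adhesion receptors and 8 of 19 lipid, nucleotide and immune receptors had it on none.

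Of the 64 tested genes, 10 differed between nuclei in at least 1 of 6 comparisons at an adjusted p under 0.05 (15.6%; limma, Benjamini-Hochberg over all genes), where 2.23% of all 27435 genes did. Among them were Gpr39, Gpr50, Gpr101, Gpr116, Gpr149, Gpr153, Gpr158, Gpr165 and Gpr179. All 10 were called in at least 1 comparison of a nucleus with the mean of the others, where 2.02% of all genes were. The measurement rests on 60-base probes; the first 30 bases are shown for 9 of the genes, because they state which transcript each value reads. Positions of the probes are in mm9, as the files give them; the exon or UTR they lie in was not analysed here. Gpr158 is shown with both probes since they differ in their result.
Gpr39 (chr1:127769282-127769341, plus strand): cggcgcagtaactcttcctccaggagaact
Gpr50 (chrX:68921205-68921264, plus strand): gtcgtgcttattgatgatgattctgatgat
Gpr165 (chrX:93914626-93914685, plus strand): tattgtgctgttatactttaacctaacgtt
Gpr149 (chr3:62334128-62334187, minus strand): aatattttgcctgtttgtctaatgaataca
Gpr101 (chrX:54749936-54749995, minus strand): caacagactcctgcttggggaatgaagaga
Gpr153 (chr4:151659386-151659445, plus strand): caaaacaaaacagcgtttcttttctgtaca
Gpr179 (chr11:97193423-97193482, minus strand): ccccgtattactgttataaatagccaccta
Gpr158 (chr2:21733256-21733315, plus strand): gggaaccaatgatgccagagaaaagttgat
Gpr158, the other probe (chr2:21751824-21751883, plus strand): tgcaagaattaaatgctttacaacataaat
Gpr116 (chr17:43596447-43596506, plus strand): atatcagtgtattagtgatgctgtctttcc

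RefSeq promoter sequences (GRCm38.p6, 300 bases around each annotated start) were found for 8 of the 10 genes. Promoters are shown for Gpr39, Gpr165 and Gpr116, which were higher in VMH, and for Gpr179, which was lower there. Capitals mark matches on either strand to CAAGTG, the core that NKX2 homeodomain proteins recognise; Gpr116 has 2 annotated starts and the one with a match is shown.
Gpr39 (chr1:125676746-125677045, plus strand): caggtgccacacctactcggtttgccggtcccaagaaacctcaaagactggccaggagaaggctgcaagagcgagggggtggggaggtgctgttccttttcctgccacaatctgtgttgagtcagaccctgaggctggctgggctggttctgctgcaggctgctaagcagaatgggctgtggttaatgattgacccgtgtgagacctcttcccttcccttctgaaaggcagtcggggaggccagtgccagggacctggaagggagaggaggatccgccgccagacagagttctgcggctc
Gpr165 (chrX:96713218-96713517, plus strand): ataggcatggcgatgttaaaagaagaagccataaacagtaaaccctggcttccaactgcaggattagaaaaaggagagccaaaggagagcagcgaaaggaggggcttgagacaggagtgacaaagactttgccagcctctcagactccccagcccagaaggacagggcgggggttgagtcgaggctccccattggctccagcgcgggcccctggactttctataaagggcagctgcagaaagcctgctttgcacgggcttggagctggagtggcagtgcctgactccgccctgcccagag
Gpr116 (chr17:43389216-43389515, plus strand): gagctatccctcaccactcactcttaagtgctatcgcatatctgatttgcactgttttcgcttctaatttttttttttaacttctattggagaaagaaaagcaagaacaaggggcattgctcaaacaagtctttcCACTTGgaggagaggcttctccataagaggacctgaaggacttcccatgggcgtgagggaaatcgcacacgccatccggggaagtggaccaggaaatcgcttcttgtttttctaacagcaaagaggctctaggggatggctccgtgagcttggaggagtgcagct
Gpr179 (chr11:97352307-97352606, minus strand): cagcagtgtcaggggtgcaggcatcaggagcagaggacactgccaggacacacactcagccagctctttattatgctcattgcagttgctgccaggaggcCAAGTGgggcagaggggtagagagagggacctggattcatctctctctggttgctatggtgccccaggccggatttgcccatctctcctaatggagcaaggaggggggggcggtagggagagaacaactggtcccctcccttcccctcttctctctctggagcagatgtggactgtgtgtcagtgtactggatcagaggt

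The core CAAGTG stood in 11 of 81 promoters of numbered Gpr genes (13.6%) and in 13.6% of all 32851 promoters. The motif CAAGGTCA, which nuclear receptors of the NR5A group bind, was searched because Nr5a1 is a VMH gene. It stood in 2 of the 81 (2.47%, Gpr132 and Gpr161) and in 1.56% of all promoters. None of the 8 called genes with a promoter sequence had it, and Gpr149 had no sequence to search. The cyclic AMP response element TGACGTCA stood in 1 of the 81 (Gpr6) and in 1.79% of all promoters. Both strands were searched, and none of the 3 motifs contains another. A match is a description of the letters in these windows.

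**Figure D2:**
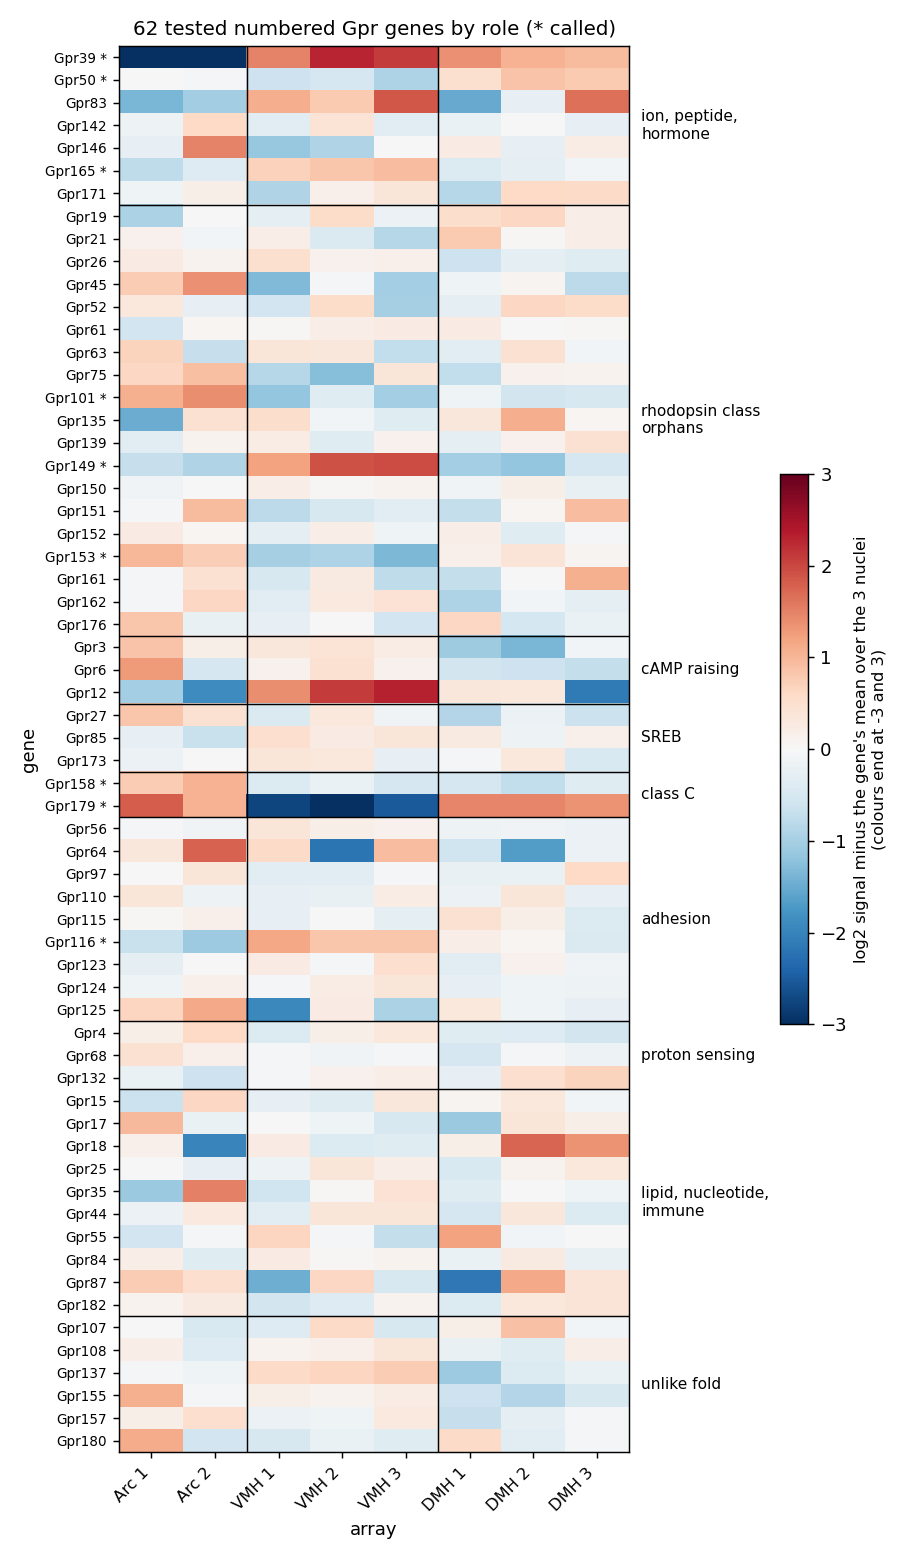
Log2 signal of 62 of the 64 tested numbered Gpr genes (rows, grouped by role) on the 8 arrays (columns), each centred on the mean of the gene's 3 nucleus means; colours end at -3 and 3, and asterisks mark called genes. Gpr39 is blue on both Arc arrays and Gpr179 on the 3 VMH arrays, while most rows stay pale.

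In the role group named for proposed ions, peptides or hormones as ligands, 7 of 10 were tested and 3 were called. The group also holds Gpr50, which does not bind melatonin, and the orphan Gpr165, so its calls are not all of receptors with such a ligand. Gpr39, a receptor activated by zinc ions, was high in VMH and DMH and without signal in Arc. In VMH its 3 arrays measured -1.70, -0.89 and -1.08, and in DMH -1.81, -2.15 and -2.22. Arc measured -6.28 and -6.25 and was not well above background on either. The 3 nuclei did not overlap. Because the Arc values are only an upper bound, folds against Arc are lower bounds. They set the mean of the bright arrays against the lowest signal that counted as well above background on each dim array. A dim array that read above that level entered with its own value, so such a fold is not a strict bound. This was so for Gpr18, Gpr64, Gpr83 and Gpr149 below, and not for Gpr39. By that measure Gpr39 was at least 6.91-fold higher in VMH than in Arc (adjusted p 0.000642) and at least 3.86-fold higher in DMH than in Arc (adjusted p 0.00307).

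Set against the average of the remaining nuclei, Gpr39 was lower in Arc (adjusted p 0.00147), higher in VMH (adjusted p 0.00233) and higher in DMH (adjusted p 0.0252). Its call against Arc held in VMH and in DMH when any array was left out. DMH was below VMH by 0.84 ± 0.25 (log2, standard error), an adjusted p of 0.203, so the order of these 2 nuclei was not called. The DMH call against the mean of the others, in which Arc takes part, was lost without Arc 1, VMH 2, VMH 3 or any DMH array (adjusted p 0.0502 to 0.106).

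Gpr50, a relative of the melatonin receptors that does not bind melatonin and is known from the DMH and the lining of the third ventricle, was highest in DMH. Its DMH arrays read -1.39, -1.03 and -1.10, its Arc arrays -1.87 and -1.93, and its VMH arrays -2.51, -2.37 and -2.79. No nucleus overlapped another. DMH exceeded VMH 2.61-fold (log2 1.39 ± 0.20, adjusted p 0.0228) and the mean of Arc and VMH 2.08-fold (adjusted p 0.0486), and VMH was below the mean of Arc and DMH by 1.02 ± 0.18 (adjusted p 0.0435). Arc lay between them: DMH exceeded Arc by 0.73 ± 0.22 with an adjusted p of 0.177. The call in DMH was lost when any of the 8 arrays was left out (adjusted p 0.0928 to 0.156) and that in VMH for each array but DMH 1 (0.0879 to 0.162). The call between DMH and VMH was lost without any VMH array, DMH 2 or DMH 3 (0.0695 to 0.0896). Tanycytes line the third ventricle. The 4 markers of tanycytes and ependyma summed to 1.83 to 2.01 times the 75th percentile in Arc, 1.71 to 1.97 in VMH and 1.62 to 2.63 in DMH. The markers did not go the same way. Ccdc153, the brightest, averaged -0.19 in Arc, 0.48 in VMH and 0.72 in DMH. Vim averaged -0.88, -3.27 and -5.21 in the same order and was well above background on 1 DMH array. Rax averaged -1.53, -2.05 and -2.03, and Foxj1 -2.97, -3.01 and -3.13. No marker was called, and their part in the Gpr50 difference was not tested.

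Gpr165, an X-linked orphan, had signal on all arrays and was highest in VMH. It read 3.49, 3.63 and 3.72 in VMH, 2.05 and 2.43 in Arc, and 2.39, 2.54 and 2.73 in DMH. All VMH arrays lay above the others, while Arc and DMH overlapped. VMH exceeded the mean of the others 2.33-fold (log2 1.22 ± 0.18, adjusted p 0.0217) and Arc 2.6-fold (adjusted p 0.0375); against DMH the adjusted p was 0.0542. The first call was lost without Arc 1, any VMH array or DMH 2 (0.0558 to 0.0997), the one against Arc for each array but DMH 1 (0.056 to 0.132).

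The other tested receptors of this group were not called. Gpr83, which has been proposed as a receptor for a peptide cut from proSAAS, had signal on every VMH array (-3.26, -3.56 and -2.50) and on no Arc array. On 1 of the 3 DMH arrays, DMH 3, it also had signal (-2.71), and the other DMH arrays read -5.87 and -4.60. DMH thus spread across the range of the other nuclei. By the measure used for dim arrays VMH was 1.91-fold above the mean of the others (adjusted p 0.267). DMH 2 entered that fold with its own value, so it is not a strict bound. Gpr142, Gpr146 and Gpr171 differed from the mean of the other nuclei by at most 1.03 in size in any nucleus.

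Of the rhodopsin-class orphans of neurons, 20 of 21 were tested and 4 were called, with Gpr149, Gpr101 and Gpr153 among them. Gpr149, an orphan known from oocytes, had signal on every VMH array and, elsewhere, only on DMH 3. Its probe is printed 10 times on each array, so its value is a mean of up to 10 spots. These means were -2.57, -1.86 and -1.81 in VMH, -4.45 and -4.68 in Arc, and -4.78, -4.94 and -4.28 in DMH. The SD between spots was 0.123 to 0.162 within VMH arrays and 0.245 to 0.676 within the dimmer Arc and DMH arrays. The lowest VMH spot read -2.85 and the highest spot of any other array -3.52. Spots repeat 1 probe on the same arrays and are not further samples. The probe entered the test only through VMH, the nucleus where it was high. VMH was at least 3.82-fold above Arc (adjusted p 0.0152). Its fitted fold above DMH was 6.01 (adjusted p 0.00759), where 1 of 3 DMH arrays had signal. DMH 1 and DMH 2 read above the lowest signal that counted, so this fold is not a lower bound. Those values also enter the 4.79-fold by which VMH exceeded the mean of the others (adjusted p 0.00584). The call against Arc was lost without Arc 1, Arc 2, VMH 2 or VMH 3 (0.0551 to 0.0618); the other calls held without any array.

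Gpr101, an X-linked receptor that raises cyclic AMP without ligand and is known from pituitary gigantism, was highest in Arc. It read 0.08 and 0.39 in Arc, -2.15, -1.36 and -2.02 in VMH, and -1.12, -1.56 and -1.48 in DMH. Both Arc arrays lay above all others, and VMH and DMH overlapped. Arc exceeded the mean of the others 3.6-fold (log2 1.85 ± 0.26, adjusted p 0.0327) and VMH was 4.22-fold below Arc (adjusted p 0.0241); DMH was 3.07-fold below Arc with an adjusted p of 0.0759. The Arc call held only without VMH 2 among the arrays left out (0.0627 to 0.118 for the others), and the call of VMH against Arc was lost without Arc 1, Arc 2, VMH 1, VMH 3 or DMH 3 (0.0552 to 0.0928). Gh, a pituitary gene used as a marker of tissue carried over in dissection, read -1.76 and -1.05 in Arc, -2.10 to -1.91 in VMH and -2.99 to -1.89 in DMH and was not called. Cga, another pituitary gene, was well above background on all arrays and differed by 0.08 in Arc (adjusted p 0.882), and Prl had too little signal to be tested; their part in the Gpr101 difference was not tested.

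Gpr153, an orphan of unknown function, read highest in Arc, lower in DMH and lowest in VMH. Its values were 1.04 and 0.78 in Arc, 0.19, 0.43 and 0.11 in DMH, and -0.97, -0.88 and -1.32 in VMH, with no overlap between nuclei. VMH was 3.11-fold below the mean of the others (log2 -1.63 ± 0.18, adjusted p 0.0091), a call that held without any array. Arc was 2.49-fold above the mean of the others (adjusted p 0.0437), a call lost without any of the 8 arrays (0.0757 to 0.144). Between nuclei, VMH was 3.91-fold below Arc (adjusted p 0.0131; 0.0551 without Arc 1) and 2.47-fold below DMH (adjusted p 0.0316; lost without each array but Arc 2, 0.0509 to 0.108). DMH was below Arc by 0.66 ± 0.23, an adjusted p of 0.214.

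Gpr45 and Gpr75 had the order of Gpr101, with both Arc arrays above all others, and no call. Gpr45 read 1.18 and 1.78 in Arc, -0.90 to 0.38 in VMH and -0.37 to 0.50 in DMH, a difference of 1.60 ± 0.39 against the mean of the others (adjusted p 0.134). Gpr75 read -0.02 and 0.25 in Arc, -1.91 to -0.28 in VMH and -1.37 to -0.51 in DMH, a difference of 1.13 ± 0.44 (adjusted p 0.274). The SD within VMH was 0.67 for Gpr45 and 0.85 for Gpr75, against 0.43 for Gpr101. Of the remaining orphans of this group, Gpr61 and Gpr139, receptors studied in the hypothalamus and the habenula, differed by at most 0.37 in size from the mean of the other nuclei.

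**Figure D3:**
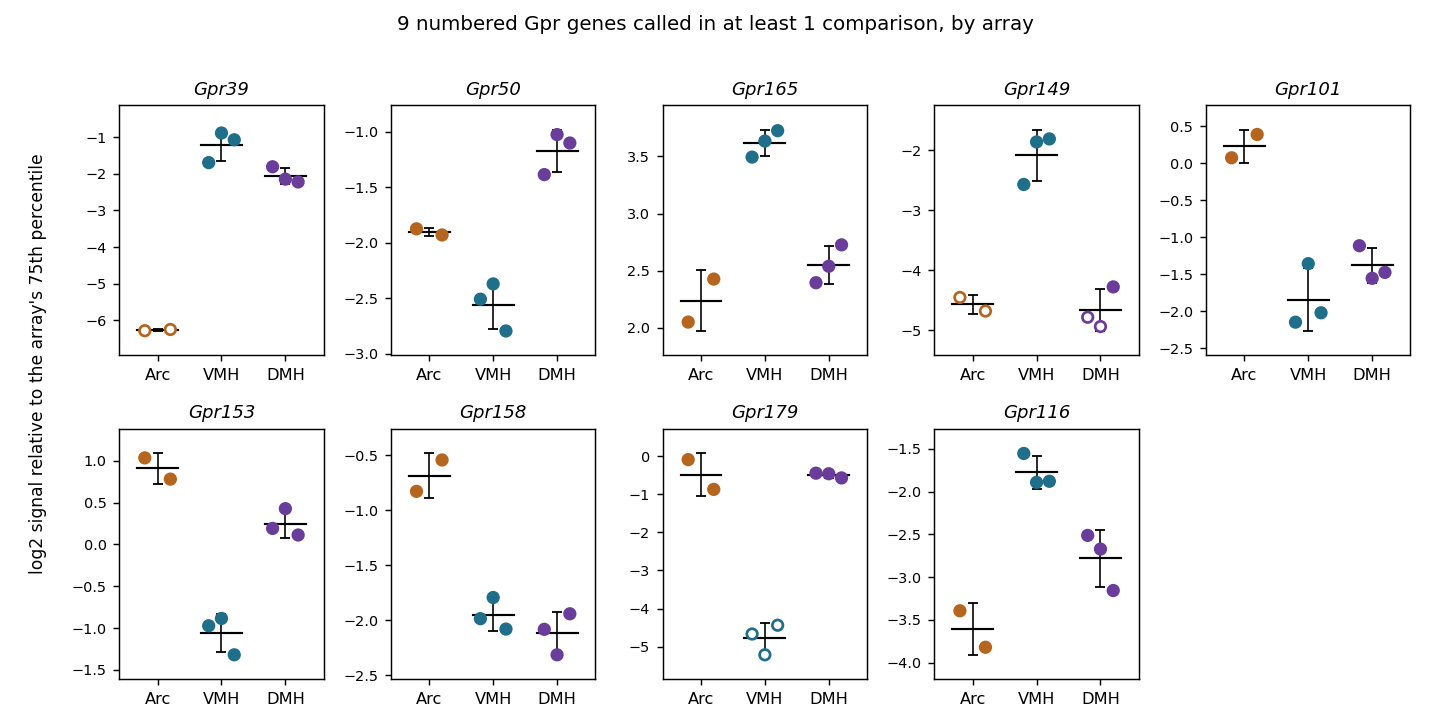
Log2 signal relative to the array's 75th percentile (vertical axis, its own range for each gene) of 9 called genes in Arc, VMH and DMH. Each point is an array, open where the signal did not clear background; lines are means and bars are SD. Gpr39 is open in Arc at -6.25 or lower, and Gpr179 is open in VMH at -4.44 or lower.

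Class C receptors, relatives of the metabotropic glutamate receptors, counted 3 members, all tested and 2 called. Gpr179, which anchors the signalling complex of retinal ON bipolar cells, had signal in Arc and DMH and none in VMH. It read -0.09 and -0.87 in Arc and -0.45, -0.46 and -0.57 in DMH. On the VMH arrays it read -4.67, -5.21 and -4.44 and was not well above background on any of them. Arc and DMH overlapped fully and differed by 0.01 ± 0.32 (log2). VMH was at least 13.8-fold below the mean of the others (adjusted p 0.00068), at least 13.7-fold below DMH (adjusted p 0.00142) and at least 13.8-fold below Arc (adjusted p 0.0025), and these calls held without any array. Since VMH enters the mean it is set against, DMH and Arc were also each above the remaining nuclei on average (adjusted p 0.0181 and 0.027). The DMH call was lost without any DMH array (0.0687 to 0.0824) and the Arc call without Arc 1, VMH 1 or any DMH array (0.0635 to 0.0854).

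Gpr158, proposed as a metabotropic glycine receptor, was highest in Arc on the probe that stands for the gene. That probe read -0.83 and -0.54 in Arc, -1.99, -1.79 and -2.08 in VMH, and -2.08, -2.31 and -1.94 in DMH. Both Arc arrays lay above all others, and VMH and DMH overlapped. Arc exceeded the mean of the others 2.54-fold (log2 1.35 ± 0.20, adjusted p 0.0345) VMH was 2.41-fold below Arc (adjusted p 0.0487), and DMH was 2.69-fold below Arc with an adjusted p of 0.0505 (0.0422 under normexp background correction). The calls in Arc and between VMH and Arc were lost without any of the 8 arrays (0.0666 to 0.122, and 0.0663 to 0.157). The other probe, which lies further along the chromosome in the direction of transcription, read -2.27 and -2.40 in Arc, -2.71, -2.65 and -3.52 in VMH and -2.07, -2.83 and -2.84 in DMH. There Arc overlapped DMH and exceeded the mean of the others by 0.43, and DMH exceeded it by 0.07 where the standing probe gave -0.79. With the mean of the probes neither call of Gpr158 was made.

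Among the 9 tested adhesion receptors 1 was called. Gpr116 (Adgrf5), known from lung epithelium and blood vessel lining, was highest in VMH. It read -1.55, -1.89 and -1.88 in VMH, -2.51, -2.67 and -3.16 in DMH and -3.39 and -3.82 in Arc, with no overlap between nuclei. VMH exceeded the mean of the others 2.67-fold (log2 1.42 ± 0.22, adjusted p 0.0275) and Arc 3.56-fold (adjusted p 0.0281). The first call was lost without Arc 2, any VMH array, DMH 2 or DMH 3 (0.0519 to 0.128) and the other without Arc 1, Arc 2, any VMH array or DMH 2 (0.0559 to 0.106). The summed signal of 5 endothelial markers was 3.06 to 3.43 in Arc, 2.22 to 2.84 in VMH and 1.81 to 2.97 in DMH, and their median difference in VMH was -0.21. None of them was called, and their part in the Gpr116 difference was not tested.

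Gpr125 (Adgra3) read -1.41 and -0.91 in Arc, above all other arrays, and spread from -3.99 to -1.82 in VMH, so that its Arc difference of 1.35 ± 0.50 had an adjusted p of 0.261; its further probe gave 1.06. Gpr64 (Adgrg2), best known from the male reproductive tract, had signal on both Arc arrays (-3.88 and -2.45), on 2 of 3 VMH arrays and on no DMH array. By the measure used for dim arrays its DMH level was 3.22-fold below Arc (adjusted p 0.371). DMH 1 and DMH 3 entered it with their own values, so it is not a strict bound. Gpr56 (Adgrg1), a receptor of neural progenitors and myelinating glia, had the smallest residual SD of the 64 tested members, 0.082. It read 1.18 and 1.11 in Arc, 1.58, 1.40 and 1.36 in VMH and 1.08, 1.12 and 1.04 in DMH. All VMH arrays were the highest, by 0.33 ± 0.15 over the mean of the others (adjusted p 0.409).

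Gpr3, Gpr6 and Gpr12 are close relatives that keep cyclic AMP high without an added ligand, and none was called. Gpr3 read -3.40, -3.70 and -2.42 in DMH against -1.49 and -2.16 in Arc and -2.00, -1.92 and -2.10 in VMH. Gpr6 read 0.61, 0.54 and 0.45 in DMH against 2.45 and 0.67 in Arc and 1.29, 1.62 and 1.28 in VMH. For both genes every DMH array lay below every other array, and the differences were -1.26 ± 0.32 (adjusted p 0.145) and -0.95 ± 0.37 (adjusted p 0.27). The Arc arrays of Gpr6 lay far apart. Without Arc 2, with Arc 1 as the only Arc array, the DMH difference of Gpr6 was -1.39, and that of DMH against Arc was -1.92. Arc 2 itself read close to the DMH arrays.

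Gpr12 had another shape, with VMH highest. It read -2.91, -2.20 and -1.99 in VMH, -3.98, -3.98 and -6.42 in DMH and -5.32 and -6.19 in Arc, as means of 7 to 10 spots per array, and was well above background on every VMH array, on DMH 1 and DMH 2 and on no Arc array. VMH lay above all other arrays. VMH was at least 3.12-fold above Arc (adjusted p 0.0984), and above the mean of the others with an adjusted p of 0.0727. The probe entered the test only through VMH, the nucleus where it was high. DMH 3, with 7 spots between -6.58 and -6.30, stood apart from the other DMH arrays. Of the arrays left out in turn, only DMH 3 gave calls when absent (adjusted p 0.0249 against Arc and 0.033 against the mean of the others). Leaving out the array that stood apart is no further evidence for a difference.

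In the SREB family no gene was called. Gpr27 read 1.52 and 1.15 in Arc, 0.27 to 1.02 in VMH and -0.19 to 0.53 in DMH. Both Arc arrays were the highest, by 0.96 ± 0.28 over the mean of the others (adjusted p 0.178). Gpr85, the most conserved of the family, ran the other way: both Arc arrays (0.08 and -0.36) lay below VMH (0.56 to 0.82) and DMH (0.16 to 0.58), a difference of -0.68 ± 0.21 (adjusted p 0.194). Gpr173 differed by at most 0.22 in size.

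The remaining groups held no call. Of the proton-sensing receptors, Gpr4, known from blood vessel lining, was -0.64 ± 0.22 in DMH against the mean of the others (adjusted p 0.23), and Gpr132 was 0.48 ± 0.25 (adjusted p 0.389). Gpr18, a proposed lipid receptor of immune cells, was well above background on the 3 DMH arrays (-3.91, -2.33 and -2.74), on 1 VMH array and on no Arc array. By the measure used for dim arrays its DMH level was 2-fold above Arc (adjusted p 0.207). Arc 1 entered that fold with its own value, so it is not a strict bound. Gpr182, an atypical chemokine receptor of vessel lining, differed by at most 0.42 in size. Gpr17, a marker of oligodendrocyte precursors, read 0.71 and -0.47 in Arc, -0.75 to -0.26 in VMH and -1.39 to 0.09 in DMH, so the nuclei overlapped.

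Of the membrane proteins of unlike fold or inside the cell, Gpr137 and Gpr155 are proteins of the lysosome. Gpr137 read 3.55, 3.61 and 3.73 in VMH, above 2.91 and 2.83 in Arc and 1.87, 2.56 and 2.78 in DMH. VMH exceeded the mean of the others by 0.99 ± 0.23 (adjusted p 0.108), a difference that was called under normexp background correction (0.0418) and under robust and trended eBayes (0.0444). Gpr155, a lysosomal cholesterol sensor, read -1.44, -1.70 and -1.30 in DMH, below 0.26 and -0.88 in Arc and -0.65, -0.70 and -0.60 in VMH. Its DMH difference of -0.997 ± 0.27 had an adjusted p of 0.16. It was -1.28 without Arc 2, the lower of the pair, with Arc 1 as the only Arc array left.

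**Figure D4:**
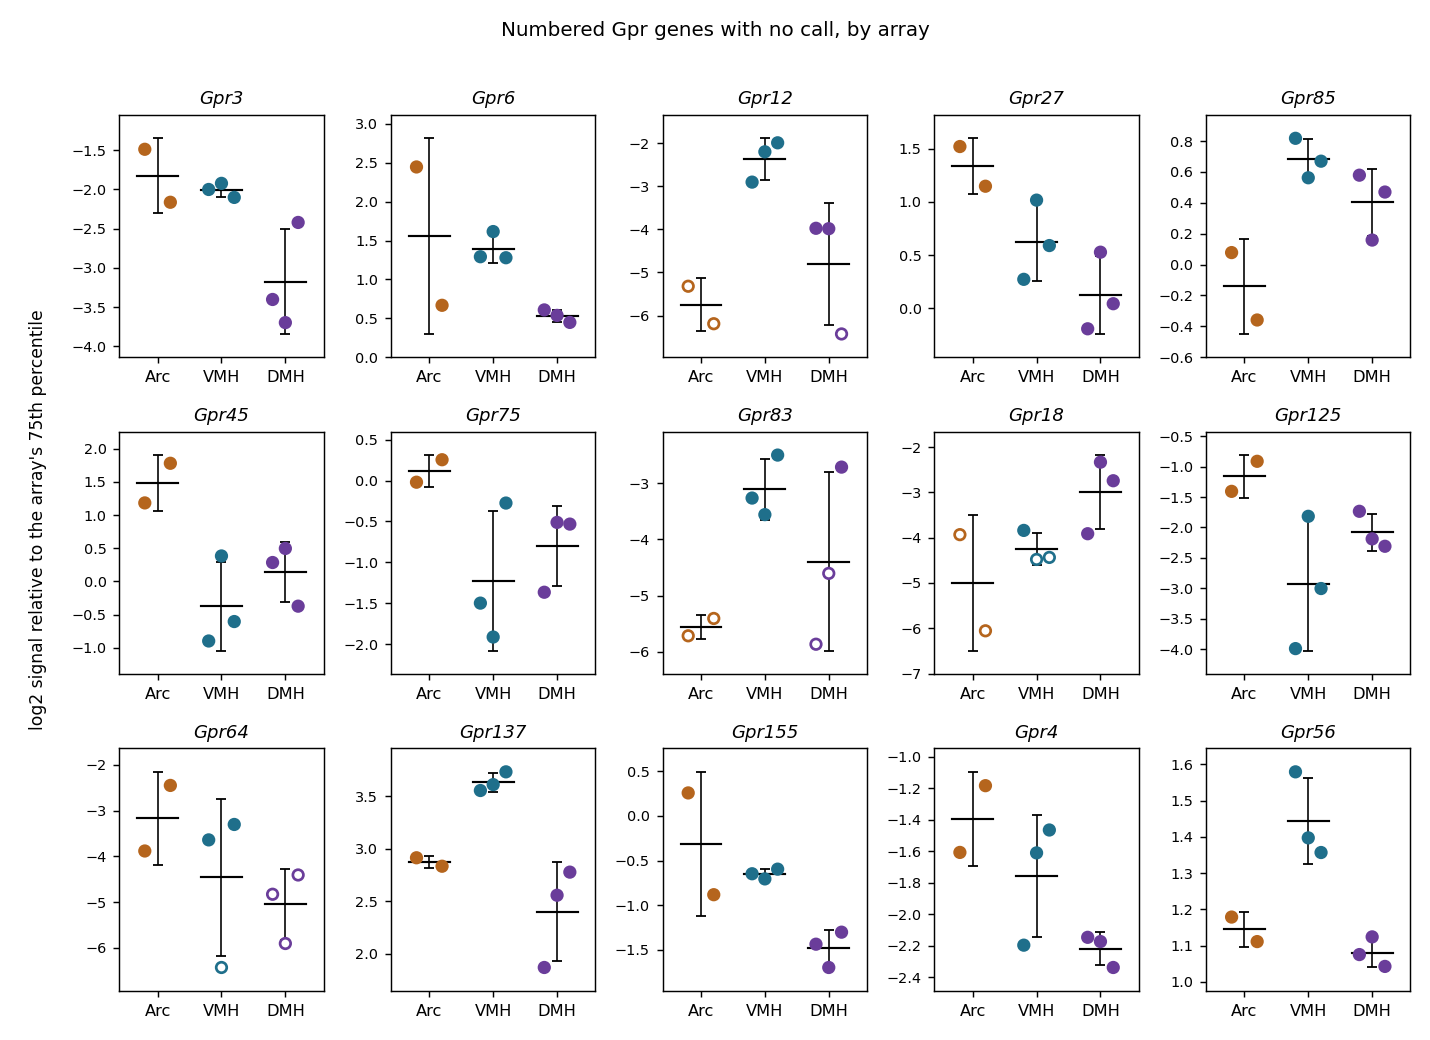
Log2 signal relative to the array's 75th percentile (vertical axis, its own range for each gene) of 15 numbered Gpr genes without a call in Arc, VMH and DMH. Points are arrays, open where not well above background, lines are means and bars are SD; the 3 DMH arrays of Gpr3, Gpr6 and Gpr155 lie below all other arrays, and DMH 3 of Gpr12 lies far below the other DMH arrays.

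Set out by nucleus, VMH against the mean of Arc and DMH gave 8 of the 64 calls (12.5%), where 1.34% of all genes were called. Of these, 5 were higher, among them Gpr39, Gpr116, Gpr149 and Gpr165 (7.81%, against 0.872% of all genes), and Gpr50, Gpr153 and Gpr179 were lower (4.69%, against 0.47%). The count was 5 without any VMH array or without DMH 2. The median difference of the 64 was -0.06, and 0.01 over all genes. All VMH arrays lay above all others for 8 of 64 (12.5%, against 5.48% of all genes) and below for 3 (4.69%, against 4.03%).

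Arc set against VMH and DMH together gave 6 calls (9.38%, against 0.609% of all genes). Gpr101, Gpr153, Gpr158 and Gpr179 were higher (6.25%, against 0.193%) and 2 were lower, Gpr39 among them (3.12%, against 0.416%). The count was 2 without Arc 1, VMH 1 or any DMH array and 3 without VMH 3. Arc had the highest of the 3 nucleus means for 30 of the 64 genes (46.9%, against 39.4% of all genes), and all Arc arrays lay above all others for 8 (12.5%, against 10%) and below for 4 (6.25%, against 6.66%). With only 2 samples, Arc means rest on less than those of the other nuclei.

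DMH against the mean of Arc and VMH gave 3 calls, Gpr39, Gpr50 and Gpr179, all higher (4.69%, against 0.365% of all genes), and none lower, where 0.474% of all genes were. The count was 1 without Arc 1, VMH 2 or VMH 3, 5 without Arc 2 and 0 without any DMH array. DMH arrays lay above all others for 1 gene, Gpr50 (1.56%, against 3.6%), and below all others for 6 (9.38%, against 5.67%). Gpr50 was thus the only called gene whose DMH arrays were all the highest; Gpr39 and Gpr179 were called in DMH with a nucleus of like or higher level beside it. At an unadjusted p under 0.05, 16 of 64 differed in DMH (25%, against 16.3% of all genes), 18 in VMH (28.1%, against 13.1%) and 18 in Arc (28.1%, against 15.7%).

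**Figure D5:**
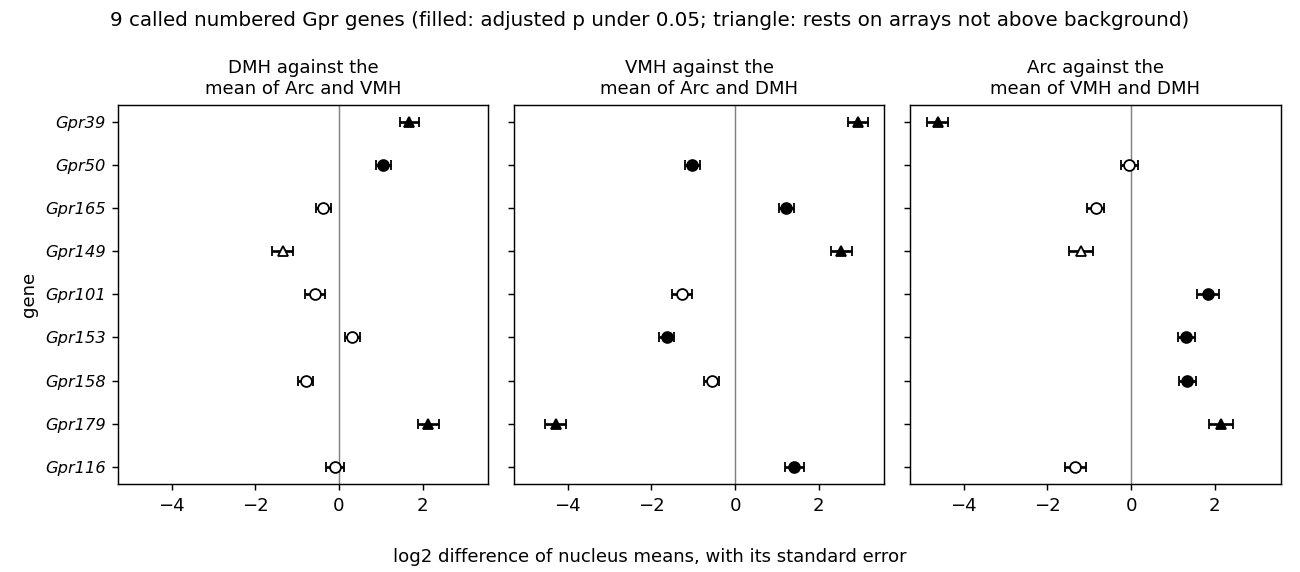
Log2 difference of nucleus means with its standard error (horizontal axis) of 9 called genes (vertical axis) for each nucleus against the mean of the others; filled points have an adjusted p under 0.05. Triangles are fitted differences of Gpr39, Gpr149 and Gpr179 that rest on arrays not well above background, whose size is not measured; the circles run from -1.63 for Gpr153 in VMH to 1.85 for Gpr101 in Arc, and Gpr50 is near 0 in Arc.

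Between pairs, VMH and Arc differed for 9 of 64 (14.1%, against 0.977% of all genes): 5 were higher in VMH, among them Gpr39, Gpr116, Gpr149 and Gpr165 (7.81%, against 0.66%), and Gpr101, Gpr153, Gpr158 and Gpr179 higher in Arc (6.25%, against 0.317%). This count was 3 without Arc 1, 4 without VMH 3 and 5 without Arc 2, VMH 1 or VMH 2. DMH and VMH differed for 4 (6.25%, against 1.23%), with Gpr50, Gpr153 and Gpr179 higher in DMH (4.69%, against 0.441%) and Gpr149 higher in VMH (1.56%, against 0.788%). It was 2 without any VMH array, DMH 2 or DMH 3. DMH and Arc differed for 2, Gpr39 among them, both higher in DMH (3.12%, against 0.241% of all genes higher and 0.416% in either direction). It was 1 without any DMH array and 5 without Arc 2. At an unadjusted p under 0.05 the pairs differed for 18 (28.1%, against 14.2% of all genes), 14 (21.9%, against 13.2%) and 18 (28.1%, against 16.6%), in the same order. These comparisons share arrays, so their calls are not separate evidence.

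The spread of the members about their nucleus means was like that of genes at large, with a median residual SD of 0.36 on the log2 scale for the 64 and 0.355 for all genes tested. Of the 11 members on the X chromosome 5 were tested, and 3 of these (Gpr50, Gpr101 and Gpr165) were called against the mean of the other nuclei. Of all X-linked genes tested 2.07% were, and of all genes with a position 2.03%. Gpr50 was highest in DMH, Gpr101 in Arc and Gpr165 in VMH, so they share no pattern.

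Genes of the machinery that receptors act through were also tested. Of 53 tested genes for G protein subunits, RGS proteins, adenylyl cyclases, receptor kinases and arrestins, 3 were called higher in VMH (0.872% of all genes were), 1 lower in Arc (0.416%) and 1 lower in DMH (0.474%). Gng13, a γ subunit known from taste cells and retinal bipolar cells, read 2.88, 2.96 and 2.46 in VMH, 0.96, 1.68 and 1.07 in DMH and -0.68 and -2.15 in Arc. It differed from the other nuclei on average by 2.86 ± 0.36 in VMH (adjusted p 0.0139) and by -3.42 ± 0.40 in Arc (adjusted p 0.0169), the order of Gpr39.

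Rgs7, which forms a complex with Gpr158 and Gpr179 in other neurons, read 0.33, -0.45 and -1.07 in VMH, -1.64, -2.46 and -2.53 in DMH and -2.94 and -3.37 in Arc. It was higher in VMH by 2.29 ± 0.36 (adjusted p 0.0295). Rgs14 read 0.47, 0.89 and 0.62 in VMH against -1.74 to -1.31 in Arc and -2.10 to -0.98 in DMH, a difference of 2.21 ± 0.28 (adjusted p 0.014). Rgs9, an RGS protein of striatum and photoreceptors, was lower in DMH: it read 3.03, 3.04 and 3.14 there, 4.44 and 4.10 in Arc and 3.85 to 4.18 in VMH, a difference of -1.08 ± 0.17 (adjusted p 0.0391).

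Of 22 tested orphan, adhesion and related receptors whose symbols are not Gpr with a number, 1 was called against the mean of the other nuclei, where 2.02% of all genes were. Lphn3, a latrophilin that binds partners across the synapse, read -0.67, -0.83 and -0.95 in DMH, 0.40 and 0.65 in Arc and 1.00, 1.53 and 0.67 in VMH. DMH differed from the mean of the others by -1.61 ± 0.23 (adjusted p 0.0306) and did not overlap the other nuclei.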

How the data were processed

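Red-channel spot intensities were taken as deposited: per the file headers, Agilent Feature Extraction (version 11.5.1.1) subtracted background and corrected spatial trends, with no scaling between arrays. The same headers give the flags used for outlier spots and for signal well above background. The authors' table of the whole series was not used, because its columns advance by a fixed step past entry 13, which leaves its scale, centring and direction unknown. Positions are in mm9, per the file headers.

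The 75th percentile of the non-control spots was subtracted on the log2 scale, outlier spots were dropped, saturated ones stayed, and spots of the same probe were averaged. A probe entered if all arrays of at least 1 nucleus showed it well above background (41502 of 55681), and the brightest stood for each gene name. Of the members named here, Gpr12, Gpr18, Gpr64, Gpr83 and Gpr149 thus entered only through the nucleus where they read highest. All 8 arrays entered 1 moderated linear model (limma 3.58.1, R 4.3.3) with a mean per nucleus, 5 residual degrees of freedom and 6 comparisons, with Benjamini-Hochberg adjustment over all genes within each at a threshold of 0.05. An outlier spot that was the only spot of a probe left that array's value missing, and 27419 to 27427 of the 27435 genes had a value in a comparison. The arrays share 1 slide and 1 scan, so neither can act as a batch. The number of arrays limits the precision.

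The numbered Gpr genes, the role groups, the other gene lists and the tests were chosen with earlier results of these data known. Some members enter the counts but are not reported here by name. Genes were named by rule: Gpr39 and Gpr50; every called member; up to 3 uncalled members per nucleus and direction whose arrays lay beyond all others; members with signal on every array of 1 nucleus and none of another; up to 2 per role group by smallest p; and called genes of the other lists. Alternatives were another background correction, 2 other scalings, 2 other filters on dim probes, the mean of a gene's probes, robust and trended eBayes, replicate number as a block, slide row as a block, and each array left out in turn. Without Arc 1 or Arc 2 the Arc nucleus rests on 1 array, so calls gained that way carry no spread within Arc. Promoter sequences come from RefSeq (GRCm38.p6).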

Additional observations from a re-analysis of the deposited data

How the results depend on the processing

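None of the 32 calls of single genes changed direction under any alternative; of 527 values, 362 kept the call and 165 lost it. The calls of Gpr39 and Gpr179 in VMH against Arc, of Gpr39 in DMH against Arc, of Gpr149 and Gpr179 in DMH against VMH, of Gpr39, Gpr149, Gpr153 and Gpr179 in VMH against the mean of the others, and of Gpr39 in Arc held under every alternative that tested them. Of 2179 values for results without a call, 26 passed the threshold. For numbered Gpr genes called in DMH against the mean of the others (3), the count was 1 under normexp background correction, 1 with probes well above background on all arrays, 0 with a slide row block and 0 to 5 with an array left out. In VMH (8) it was 5 with the all-array filter, 5 with the slide row block and 5 to 8 with an array left out, and in Arc (6) it was 3, 2 and 2 to 4. For DMH against VMH (4) an array left out gave 2 to 5. For DMH against Arc (2) the all-array filter gave 1 and an array left out 1 to 5, and for VMH against Arc (9) the all-array filter gave 5, the slide row block 5 and an array left out 3 to 8. The all-array filter removes Gpr39, Gpr149 and Gpr179, among others, from the test because each lacks signal in a nucleus; for the other alternatives the cause was not tested.

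Samples of different nuclei share replicate numbers in the labels. Deviations of same-numbered samples from their nucleus means correlated at 0.185, 0.146 and 0.0994 between VMH and DMH, and at 0.072 to 0.0927 for pairs with Arc. All of these were positive, and every sample correlated best with its own number, a hint from the data and not from the design. Deviations within a nucleus cancel out, and those of the 2 Arc arrays mirror each other. These correlations are therefore tied together and are not separate observations. Whether same-numbered samples belong together is therefore not known, and the main fit did not pair them. With the replicate block, 0 members were called in DMH, 2 in Arc, and for pairs 2 (DMH and VMH), 1 (DMH and Arc) and 3 (VMH and Arc). In VMH against the mean of the others, Gpr50 and Gpr165 lost their calls, while Gpr39, Gpr116, Gpr149, Gpr153 and Gpr179 were among those that kept them. Over all genes the block gave 60 calls against 230 in DMH, 143 against 368 in VMH and 40 against 167 in Arc, and for pairs 163 against 337 (DMH and VMH), 32 against 114 (DMH and Arc) and 74 against 268 (VMH and Arc).

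Over all genes the slide row block gave 70 calls in DMH, 215 in VMH, 79 in Arc, and for pairs 167 (DMH and VMH), 55 (DMH and Arc) and 164 (VMH and Arc). With no filter these were 111, 237, 89, 200, 41 and 164. Normexp correction gave 284 in Arc, 233 for DMH and Arc, and 408 for VMH and Arc; robust and trended eBayes gave 277 in Arc and 224 for DMH against Arc; the mean of a gene's probes gave 207 for DMH against Arc. With an array left out the counts over all genes ran from 40 to 279 in DMH, 106 to 345 in VMH and 58 to 289 in Arc, and from 115 to 289, 38 to 245 and 93 to 342 for the pairs in the same order. Signal over background limits genes such as Gpr12, Gpr18, Gpr39, Gpr64, Gpr83, Gpr149 and Gpr179, whose dim arrays give at most a bound.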
